A study of Homo sapiens and Mus musculus with 21 samples.

Results

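The regions described here are the m6Am regions of HEK293T cells that lie away from the start of any gene in a reference gene table. The authors' strict list of putative m6Am regions, built from antibody crosslinking data, held 2360 regions on GRCh38. A region was counted as away when the nearest annotated gene start on its own strand lay more than 50 nt from the edge of the region. This left 504 regions (21.4%, exact 95% interval 19.7 to 23.1%), and the other 1856 lay at a gene start. The choice used position alone and no score. Just inside the limit lay regions of ALDH1B1 and TRAPPC1, each 49 nt from the gene start, and SHMT1, at 50 nt. Just outside lay PRP4K at 51 nt and POLR3B and CUL5 at 53 nt each.

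HEK293T is a transformed human embryonic kidney line. Groups were unmodified cells (WT) and cells in which PCIF1 had been knocked out (PCIF1KO, here KO). miCLIP, which crosslinks an anti-m6A antibody to RNA, had 1 WT and 2 KO libraries. Ribosome-protected fragments and their input RNA had 2 WT and 3 KO libraries each. SLAM-seq, which follows the loss of 4-thiouridine from RNA, had 1 library per genotype at each of 0, 6 and 12 h. The labels give no other treatment and do not say whether the KO libraries came from 1 clone or several, or whether replicates were separate cultures. The p-values therefore reflect library-to-library spread, part or all of which can be technical.

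m6Am is an adenosine methylated on both the base and the ribose, found as the first transcribed nucleotide next to the cap of an mRNA. PCIF1 is the enzyme that adds the N6-methyl group. Internal m6A is written by another complex, METTL3 and METTL14, mostly within the DRACH sequence context, so the same antibody reads both marks. Because m6Am sits at the first base of a transcript, its place marks where transcription began. A gene table with 1 outermost start per gene misses the many promoters that lie further inside a gene.

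For 286 of the 504 regions (56.7%, 52.3 to 61.1%) a second reference, a set of RefSeq promoter windows that lists several starts per gene, held a transcript start within 50 nt on the same strand. Of these regions, 249 covered such a start. These windows are where the start base can be read. The 8 highest-scoring regions with a single RefSeq start inside them are printed here to set the base at the start beside its surroundings. Each stretch holds 40 bases before the start and 40 from it onward, in the sense of the transcript, from GRCh38.p14 as given by RefSeq, and the capital marks the annotated first base.

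HNRNPH1: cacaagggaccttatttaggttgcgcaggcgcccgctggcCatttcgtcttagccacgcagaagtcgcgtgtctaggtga
UBA1: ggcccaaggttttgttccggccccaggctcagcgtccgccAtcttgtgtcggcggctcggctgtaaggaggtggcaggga
HSP90AA1: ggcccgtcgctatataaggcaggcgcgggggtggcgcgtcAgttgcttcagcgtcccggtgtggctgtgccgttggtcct
TUBA1C: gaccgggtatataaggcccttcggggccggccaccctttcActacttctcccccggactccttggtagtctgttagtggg
ATP6V0C: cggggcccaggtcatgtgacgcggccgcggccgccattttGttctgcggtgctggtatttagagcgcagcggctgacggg
MAGT1: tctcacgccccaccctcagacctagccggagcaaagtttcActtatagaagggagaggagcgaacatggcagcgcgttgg
PCNA: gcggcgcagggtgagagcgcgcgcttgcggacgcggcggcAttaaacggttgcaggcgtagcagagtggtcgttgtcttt
EIF5A: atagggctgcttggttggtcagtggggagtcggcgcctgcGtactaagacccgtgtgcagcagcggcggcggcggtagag

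The HNRNPH1 stretch is chr5:179623632-179623711 on the minus strand, and its start lies 11113 nt inside the gene span. HNRNPH1 encodes a splicing regulator of the hnRNP family. Its region, chr5:179623551-179623700, had the highest score of the whole list, 5.88. The UBA1 stretch is chrX:47193789-47193868 on the plus strand, 2982 nt inside the span of the gene for the main ubiquitin-activating enzyme. Its region had the second score of the list, 5.26. The HSP90AA1 stretch, chr14:102087005-102087084 on the minus strand, lies 52705 nt inside the span of the inducible HSP90 chaperone gene, and its region scored 5.13. The TUBA1C stretch, chr12:49265042-49265121 on the plus strand, lies 37156 nt inside the span of this alpha-tubulin gene, and its region scored 5.02. In these 4 genes the start inside the region lies 2982 nt or more from the outermost start.

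ATP6V0C, a proton pump subunit of lysosomes, was read at chr16:2513912-2513991 on the plus strand, and its G start lies 226 nt inside the gene. MAGT1, a magnesium transport and glycosylation protein, was read at chrX:77895396-77895475 on the minus strand, 133 nt inside. PCNA, the sliding clamp of DNA replication, was read at chr20:5119919-5119998 on the minus strand, 6664 nt inside. EIF5A, a translation factor, was read at chr17:7307588-7307667 on the plus strand, 629 nt inside. Its G start lay 127 nt from the 5′ edge of its region, the farthest of the 8. Of the 8 starts, 5 were an A.

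Of the 267 away regions with exactly 1 RefSeq start within 50 nt, 156 had an A as the annotated first base (58.4%, exact 95% interval 52.3 to 64.4%), 80 a G, 31 a C and 0 a T. A count of 0 of 267 regions has an exact upper bound of 1.37%. T was as rare at gene starts, with 3 of 1385 regions with a single such start (0.217%), and made up 7.2% of all windows. The share of A was 59.3% among 1385 regions at gene starts with a single such start, and 44.4% over all 35116 promoter windows. An A start with a C just before it, the usual core of an initiator, was found in 40.8% of away regions, 45.0% of regions at gene starts and 29.6% of all windows. The intervals of away and at-start regions overlap for A and for A after C. The annotated base need not be the base used in these cells, since a start can be annotated a few nucleotides off: HNRNPH1 has C at the annotated start and A at the next base.

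The place of the start within the region was also close between the groups. The single start lay inside the region for 87.3% of away regions and 85.8% of regions at gene starts. It lay in the first 50 nt from the 5′ edge in 73.8% and 74.8%. The median distance from the 5′ edge was 22 nt in away regions (n = 267) and 23 nt at gene starts (n = 1385). In UBA1 the start lay 28 nt from the edge, in HSP90AA1 6 nt, in TUBA1C 31 nt and in PCNA 42 nt. The regions are built from 50-nt bins, so these distances carry that grain.

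**Figure D1:**
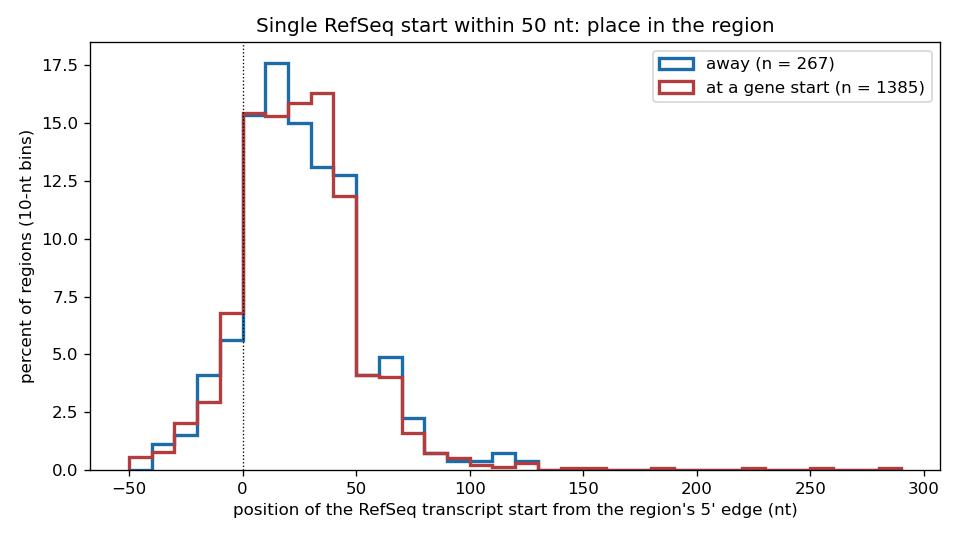
Position of the single RefSeq transcript start, in nt from the 5′ edge of the region (x axis, 10-nt bins), as percent of regions (y axis), for 267 regions away from gene starts (blue) and 1385 at gene starts (red). Both outlines peak in the first 50 nt after the edge, with medians of 22 and 23 nt.

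The letters TATA, visible upstream of the start in HSP90AA1 and TUBA1C, were then counted in the window between 40 and 15 bases before the start. The motif was chosen after these sequences had been seen, and TATA reads the same on both strands. It was present in 24 of 267 away regions (8.99%, 5.84 to 13.1%), in 57 of 1385 regions at gene starts (4.12%, 3.13 to 5.30%) and in 6.24% of all windows. The longer TATAAA, which contains TATA and was searched in the sense direction only, was present in 1.87%, 1.66% and 2.30%. The median GC content of the windows was 66.3% for away regions, 64.3% at gene starts and 58.7% over all windows. A match is a description of letters, not of a bound factor.

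The 504 regions fell into 3 kinds by what the references list at their position. Besides the 286 at another RefSeq start, 33 (6.55%) overlapped only a window of the authors' transcript-start class tables. These tables give, for a subset of genes, a window around the authors' own transcript start and the class of its first nucleotide. The remaining 185 (36.7%, 32.5 to 41.1%) had no start listed in either source. Promoter windows of chromosome 8 were not used here, so its 11 away regions, among them those of NEFM and YWHAZ, could not be placed at another RefSeq start and were all counted among the 185. The examples of the second kind overlapped a class window but had no RefSeq start within 50 nt. Every m6Am class window overlapped a region of this same list, so such a window is not independent evidence of a start. UBB, a polyubiquitin gene, had a region of score 5.20 at chr17:16381051-16381200, 272 nt from the gene start and 90 nt from the nearest RefSeq start. GNAS, a G protein gene with several known promoters, had its region 51603 nt inside the gene, with score 4.04. VIM, the intermediate filament vimentin, had the lowest score of all away regions, 2.02, at chr10:17229201-17229300, 960 nt from its gene start.

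The median distance of the away regions from the nearest gene start was 857 nt, and distances ran from 51 to 270841 nt. Up to 100 nt away lay 41 regions, above that and up to 250 nt another 60, up to 500 nt 86 and up to 1000 nt 82. A further 100 lay up to 5000 nt away, 82 up to 20000 nt and 53 farther. Regions at another RefSeq start were found in every range of distance. The region lay downstream of its nearest start in 419 cases (83.1%) and upstream in 85.

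**Figure D2:**
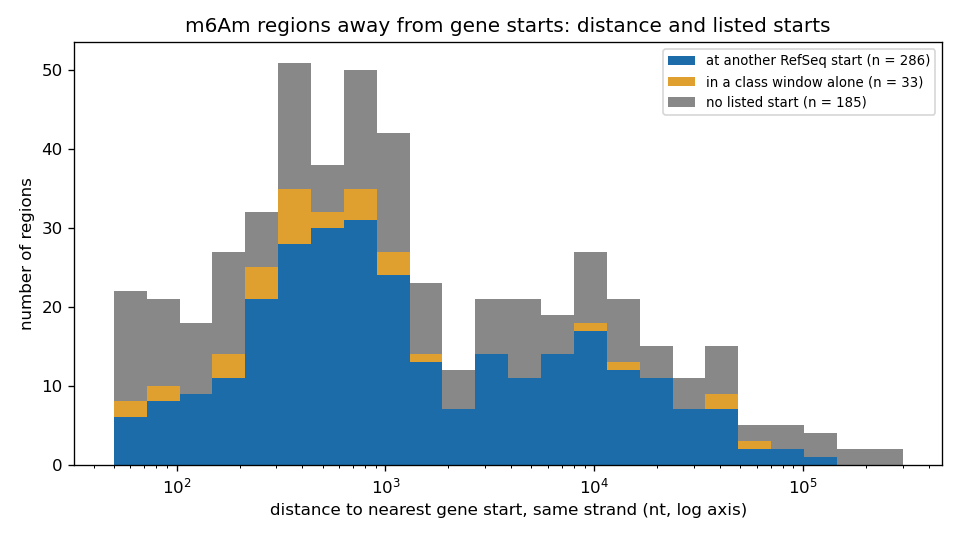
Number of away regions (y axis) by distance to the nearest gene start on the same strand (x axis, nt, log axis), stacked by kind: at another RefSeq start (n = 286), in a class window alone (n = 33) and with no listed start (n = 185). All kinds spread from near the 50-nt limit to beyond 20000 nt, with a median of 857 nt over all 504.

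A gene span held 461 of the 504 regions (91.5%, 88.7 to 93.8%). Among regions at gene starts it was 98.8%, a share that their place within 50 nt of a start largely fixes. The regions lay in 451 host genes, of which 442 were protein-coding and 7 were long noncoding RNAs, MALAT1 among them. The 5′ edge lay in the first 10% of the host gene in 260 of the 461, past the middle in 76 and in the last 10% in 17. More than 1 region fell in 8 host genes. NEFM, the medium neurofilament subunit, had 4. The membrane protein CD63, the corepressor CTBP2, the chaperone HSPA1B, the ubiquitin ligase MID1, SHISA2, the homeobox gene UNCX and the adaptor YWHAZ had 2 each. The table holds no exons, so whether a region is exonic or intronic was not determined.

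The authors' score, whose scale is not stated, is used only to rank regions within the list. It had a median of 2.81 in away regions (range 2.02 to 5.88) and 2.92 at gene starts (2.01 to 5.23). By kind the medians were 2.92 at another RefSeq start, 2.84 in a class window alone and 2.74 with no listed start. Away regions made up 18.6% of the 236 highest-scoring regions of the list and 28.4% of the 236 lowest, with exact intervals of 13.9 to 24.2% and 22.7 to 34.6%. The top 2 scores of the list, HNRNPH1 and UBA1, both belonged to away regions. At the low end, after VIM, came HSPA1B (2.02), the zinc-finger gene THAP3 (2.04), the ribosomal protein paralogue RPL26L1 (2.04) and the complex I subunit NDUFC1 (2.06).

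**Figure D3:**
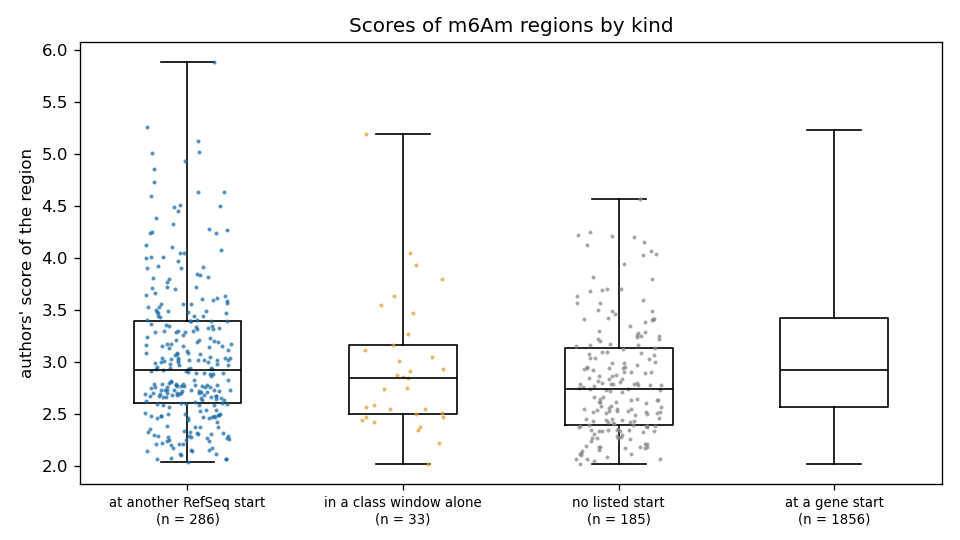
Authors' score (y axis) of the m6Am regions by kind; boxes give the quartiles and the median, whiskers the full range, and points the single away regions. The highest score, 5.88 in HNRNPH1, lies at another RefSeq start, and the kind with no listed start has the lowest median, 2.74.

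Most regions were narrow. The median width was 100 nt in both groups, and 322 away regions (63.9%) were exactly 100 nt wide. More than 150 nt were covered by 26 away regions (5.16%, 3.40 to 7.47%) and 54 at gene starts (2.91%, 2.19 to 3.78%). The widest of all was in HSPA1B, 1200 nt at chr6:31828201-31829400. SHISA2 followed with 450 nt and HSPA1A with 400 nt. HSPA1A and HSPA1B, inducible HSP70 chaperones, are near-identical copies, so reads may have been split between them. The same holds for EIF3C and EIF3CL, which each had a region.

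In 16 of the 451 host genes a region also lay at the gene start. The away region had the higher score in 7 of these 16. In ACOT7, an acyl-CoA thioesterase gene, the away region scored 4.22 and the start region 2.38, 301 nt apart. In YWHAZ the scores were 4.07 and 2.40, and in ATP5PF, an ATP synthase subunit, 4.05 and 2.51. HSD17B10, a mitochondrial dehydrogenase gene, had the reverse order, with 2.34 away and 5.02 at the start. OAZ1, the antizyme of polyamine synthesis, likewise had 2.40 away and 4.49 at the start. Genes with both kinds of region thus showed no common order.

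By gene group, the share of genes that hosted an away region differed between lists, which were filled by symbol pattern and, but for the small RNAs and snoRNA hosts, hold protein-coding genes only. Over all 20056 protein-coding genes, 2.20% hosted an away region and 8.78% had a region at the gene start. Proteasome genes had away regions in 8 of 50 (PSMA1 and PSMC2 among them, and PSME3IP1, which the pattern takes in but which interacts with the proteasome's activator) and start regions in 23. The splicing list of hnRNP, SR and snRNP proteins had 9 of 59 away (HNRNPH1, SRSF2, SNRPD3) and 29 at starts. Chaperones had 13 of 90 away and 14 of 90 at starts. Those 13 included HSP90AA1, HSP90AB1, HSPD1, HSPA8, HSPH1, CCT4, CCT5 and DNAJB1. The cytoskeleton list had 7 of 86 away (VIM, TUBA1C, LMNA) and 6 at starts. Oxidative phosphorylation genes had 6 of 101 away (5.9%) and 54 at starts, and cytosolic ribosomal proteins 7 of 88 away (8.0%) and 30 at starts. Both away shares were above the 2.20% of all protein-coding genes, and that of the ribosomal proteins was close to the cytoskeleton list (8.1%). Mitochondrial ribosomal proteins had 4 of 77 away and 35 at starts, translation factors 4 of 78 and 23, and cell cycle genes 5 of 116 and 22. Zinc finger genes with a ZNF symbol had 1 of 517 away, ZNF146. Those with other symbols, such as the host THAP3, are not in this list. The histone list had 1 of 92 with an away region, the replication-independent H3-3A (score 3.77). The histone variant gene MACROH2A1, whose symbol the pattern does not match, also hosted an away region. No small nuclear or nucleolar RNA gene (0 of 2435) and no snoRNA host (0 of 30) held one. For the small RNAs this count is partly set by the rules. A short gene leaves little room more than 50 nt from its start. Where spans overlapped, genes of known strand were taken first as host, and among these protein-coding genes. The list filled by the symbols of m6A and m6Am enzymes and readers had 3 of 36: PCIF1, IGF2BP1 and METTL23, of which METTL23 entered by its METTL symbol and is known as a histone arginine methyltransferase. RNA abundance was not taken into account in these shares, and nothing particular to a list was tested.

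The transcript-start class tables of the authors name a first-nucleotide class for the genes they hold. The window of each m6Am entry overlapped a region of the list: 416 of 416 in the translational efficiency table and 96 of 96 in the SLAM-seq table. No window of an A, C, G or T entry did, in either table. Regions away from gene starts accounted for 81 of the 416 and 20 of the 96 m6Am entries. UBA1, HSP90AA1, TUBA1C and PCNA are among the m6Am entries whose region lies far from the outer gene start. Of 104 host genes present in the class tables, 95 were classed m6Am (91.3%, 84.2 to 96.0%), which the overlap above largely fixes. The other 9 hosts had their class window elsewhere. SNRPD3, a core splicing protein, was classed G and had an away region of score 4.63 with an annotated A start. GSTM3, PSMD8, CHEK1 and HUWE1 were classed C, UBE2L3, CDK1 and CNOT8 were classed A, and XPO5 was classed T. HUWE1 encodes a ubiquitin ligase, CHEK1 and CDK1 are cell cycle kinases and XPO5 exports precursor microRNAs.

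DRACH sites, the internal m6A positions called per miCLIP library, were rare inside away regions. The WT list placed a site in 23 of 504 regions (4.56%, 2.92 to 6.77%), the list of KO replicate 1 in 5 (0.992%) and that of KO replicate 2 in 9 (1.79%). In number of sites this was 31 in WT and 5 and 10 in KO. A few genes, picked after their values were seen, held a large part of the WT sites. NEFM, PCIF1, SHISA2, UNCX, MID1 and HSPA1B together held 9 of the 23 regions and 15 of the 31 sites. The whole lists held 43663, 40768 and 47644 sites, so the lists were of similar length. At gene starts the shares were 3.72% in WT and 1.62% and 1.72% in KO. Regions with no listed start held a WT site in 13 of 185 (7.03%, 3.79 to 11.7%), and regions at another RefSeq start in 8 of 286 (2.80%). Their intervals overlap. Whether the authors used the KO libraries to choose the regions is not stated. If so, fewer KO sites inside them would be partly built in, and this was not tested.

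**Figure D4:**
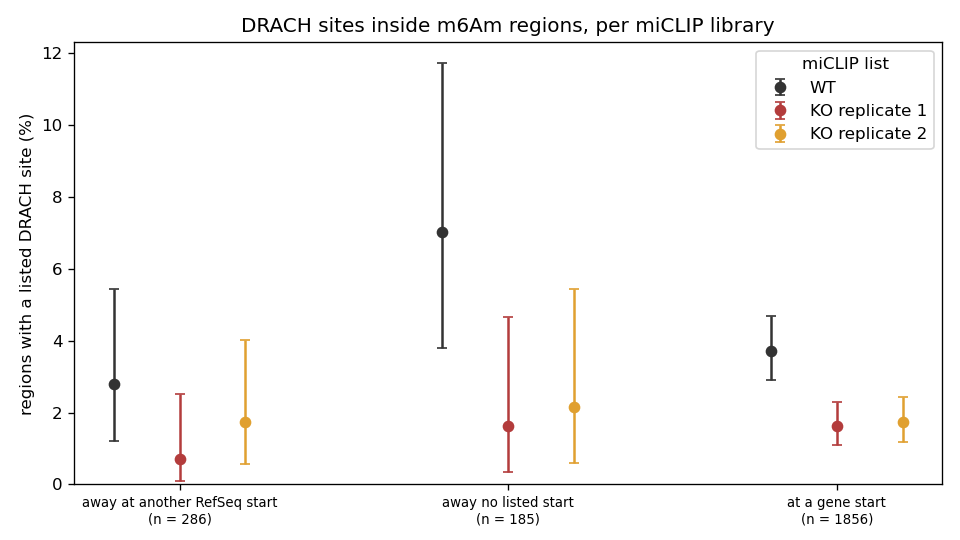
Percent of m6Am regions holding at least 1 listed DRACH site (y axis, exact 95% intervals for counting error), for regions at another RefSeq start, with no listed start and at a gene start (x axis), in the WT list and the lists of KO replicates 1 and 2. The WT share is the highest in each group and reaches 7.03% in regions with no listed start.

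The regions with the most substituted reads at WT sites lay in HSPA1B, PCIF1, NEFM, SHISA2, DDX3X and HDGF. In HSPA1B, 13 of 287 reads were substituted at 1 WT site, and the region at chr6:31829651-31829850 held 2 sites in WT, 1 in KO replicate 1 and 2 in KO replicate 2. In NEFM 12 of 46 reads were substituted at chr8:24914315, and its 4 regions held 3 WT sites and none in KO. In PCIF1 itself the region chr20:45947651-45948000 was 350 nt wide with score 4.15. It lay at 97.2% of the gene's length, 20 nt from the 3′ end, which is the opposite end from the cap. It held 2 WT sites, with 10 of 85 and 4 of 63 reads substituted, and 1 site in each KO list. SHISA2 had 5 WT sites in its 2 regions, against 0 and 1 in KO. The RNA helicase gene DDX3X had 2 WT sites and 0 in KO inside a region at another RefSeq start, as did the growth factor gene HDGF. The whole DDX3X gene held 12 WT sites and 11 and 12 in KO, and the whole HDGF gene 4 WT sites and 1 and 2 in KO.

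The same lists were counted over whole host genes to set the sites inside a region beside those in the rest of its gene. Over the 127 host genes with at least 5 WT sites, the median ratio of KO to WT sites was 0.818 for KO replicate 1 and 1.0 for KO replicate 2. These genes were chosen by their WT sites in 1 library, which by itself favours lower KO counts. The same ratios over all genes with as many WT sites were not counted. In 8 of the 127, both KO lists held fewer than 0.5 times the sites of WT. NEFM went from 5 WT sites to 0 and 0, SHISA2 from 5 to 0 and 1, UNCX from 5 to 1 and 0, and MID1 from 15 to 3 and 4. The other 4 were UBAP2L, HSD17B12, AMZ2 and SET. In PCIF1 the reads at listed sites were 148 in WT and 8 and 5 in the KO lists. In NEFM, UNCX and MID1 some of these WT sites lay outside the regions, while all 5 of SHISA2 lay inside its 2 regions. The part of RNA level in this was not tested, since the input counts of these genes are not used here.

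Regions with no listed start were then split by place. Of the 185, 148 lay in a gene span and 37 outside every span; 74 lay within 500 nt of a gene start. For 46 of the 148, the host gene had no window in the promoter table used here, so another start of that gene was not examined. Inside a span and more than 500 nt from a gene start lay 87 regions. Of these, 8 (9.20%, 4.05 to 17.3%) lay within 500 nt of the 3′ end of the host, PCIF1 (20 nt), UNCX (76 nt), NEFM (293 nt) and NAA38 (466 nt) among them. More than 150 nt were covered by 10 of the 87 (11.5%), and 11 (12.6%, 6.48 to 21.5%) held a WT DRACH site. Deep regions of high score without any DRACH site included AP3D1, an adaptor protein gene, with 4.21 at chr19:2151401-2151600, YWHAZ with 4.07 and the checkpoint gene RHNO1 with 4.04. CALM2, a calmodulin gene, scored 4.56 at 386 nt from its start, the highest of the kind.

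Of the 185 regions with no listed start, 24 lay outside every span and more than 500 nt from a gene start. The farthest of all was chr15:54926001-54926100 on the minus strand, 270841 nt from the start of RSL24D1, with score 3.80. Next on chromosome 7 came chr7:118703751-118703850, 177412 nt away with score 4.02, and chr7:125702251-125702350, 151696 nt away with score 3.25, both on the minus strand. Each of these 3 was 100 nt wide and held no DRACH site in the WT list.

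RNA levels in the input libraries could be followed for 110 genes, the host genes and class-window genes that the class tables tie to an Ensembl identifier. None of the 110 passed the test in KO against WT (edgeR quasi-likelihood F test, Benjamini-Hochberg over all genes, adjusted p at least 0.449). Over all 14629 genes tested, 5 (0.0342%) were called. At an unadjusted p under 0.05 there were 15 of the 110 and 1360 of all genes. The median log2 change was 0.01 in the 110 (range -0.52 to 0.72) and -0.02 in all genes tested; 58 of the 110 were higher and 52 lower in KO.

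The members with the smallest p show how wide the WT pair was. NBR1, an autophagy receptor gene, had 147 and 106 CPM (counts scaled to library size) in WT and 87.2, 89.1 and 87.5 in KO. Its KO libraries all lay below WT, with a log2 change of -0.52 ± 0.14 (SE, n = 2 and 3, edgeR adjusted p = 0.449). IGF2BP1, an m6A reader, had 906 and 699 CPM in WT and 631, 619 and 620 in KO (-0.36 ± 0.10, edgeR adjusted p = 0.449). VBP1, a prefoldin subunit, had 27.4 and 55.9 CPM in WT and 69.7, 72.3 and 61.8 in KO (0.72 ± 0.23, edgeR adjusted p = 0.488). HSP90AA1 was not among the 5 smallest p on the higher side. It had 117 and 169 CPM in WT and 172, 181 and 182 in KO (0.32 ± 0.14, edgeR adjusted p = 0.516). In VBP1 and HSP90AA1 the groups did not overlap, but the 2 WT libraries stood farther apart than the 3 KO libraries. The 5 smallest p on the lower side also included FTSJ3 (log2 change -0.28), ACLY (-0.26) and ATP2A2 (-0.26). Those on the higher side also included CDK1 (0.58), PPP1CB (0.47), CDKN2A (0.29) and XPO1 (0.34), with none called. UBA1 had 884 and 952 CPM in WT against 848, 938 and 969 in KO, overlapping groups with a log2 change of 0.01 ± 0.08.

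**Figure D5:**
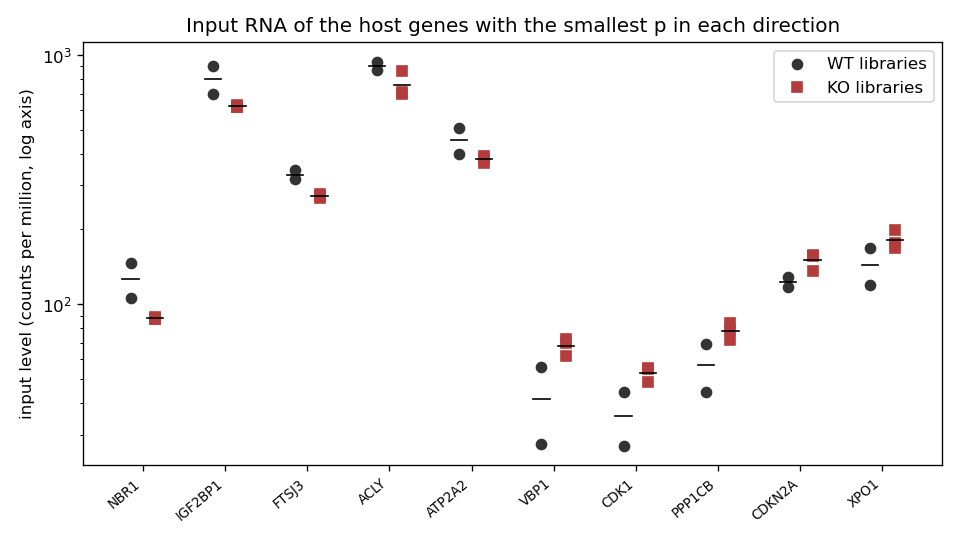
Input level in CPM (y axis, log axis) of the host genes with the smallest p in each direction, per library: circles are the 2 WT libraries, squares the 3 KO libraries and short lines the group means. NBR1 and IGF2BP1 lie lower in all 3 KO libraries and VBP1 higher, with WT libraries that differ between themselves.

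The result depended on 1 library. Without WT replicate 2, 27 of the 110 genes were called (15 higher, 12 lower in KO) along with 1912 of 15386 genes in all, from a single remaining WT library that was assumed to vary like the KO libraries. Without WT replicate 1, 0 of the 110 and 53 of 15161 were called.

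Translational efficiency, the change in ribosome-protected fragments relative to input, was tested for 89 of these genes in the authors' 785-gene fragment table. No gene passed in the edgeR interaction test, members or others (0 of 785, percent called 0; 56 of 785 and 6 of the 89 at an unadjusted p under 0.05; DESeq2 called 2 of 784). The median log2 change was 0.11 in the 89, and 0.01 in all 785. Without WT replicate 1 the medians were 0.02 and 0.02, and without WT replicate 2 they were 0.19 and 0.01. VIM had the smallest p, with 40 and 155 fragment counts in WT and 461, 175 and 257 in KO, against an input of 374 and 342 CPM in WT and 370, 345 and 364 in KO. Its efficiency change was 0.79 ± 0.20 on the log2 scale (edgeR adjusted p = 0.457). In the authors' deposited table VIM had 0.73 with an adjusted p of 0.0452, the 1 of the 81 away-region entries under 0.05, beside 1 of 335 m6Am entries with a region at a gene start and 0 of 349 others. DESeq2 run here gave the same adjusted p, 0.0452. VBP1 had the lowest value, -1.44 ± 0.41 (edgeR adjusted p = 0.457), and -1.46 in the authors' deposited table with an adjusted p of 0.260. CCT5, a chaperonin subunit, had 0.70 ± 0.29 (edgeR adjusted p = 0.608). Also among the 5 smallest p on the higher side were XPO5 (0.71), CD81 (0.53) and TPI1 (0.50), and on the lower side, after VBP1, CDK1 (-1.12), PSMC2 (-0.67), RRM1 (-0.49) and GSTM3 (-0.74), with none called. The fragment totals over the listed genes ran from 17665 to 124580 counts, with the WT libraries at 17665 and 61816.

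In the authors' deposited efficiency table the median log2 change was 0.08 for the 81 m6Am entries with an away region, 0.02 for the 335 with a region at a gene start and -0.07 for the 349 A, C, G or T entries. In the authors' deposited SLAM-seq table the KO over WT ratio had a median of 0.904 in the 20 entries with an away region (range 0.298 to 2.997), 0.871 in 76 with a region at the start and 0.891 in 570 others. The ratio was above 1 in 8 of the 20, 29 of the 76 and 227 of the 570. FHL1, a LIM protein gene, had the highest at 2.997 and VPS45, a vesicle transport gene, the lowest at 0.298. The quantity that was divided is not stated in the file. These medians are descriptions with no test.

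For the line itself, 4 of 8 markers fixed for HEK293T (IRS4, INA, NEFL and NEFM) had a DRACH site in WT and 1 of 7 markers of other cell types did (COL1A1, with 9 reads). IRS4 had 69 WT sites and 58 and 60 in KO. In the lists of KO replicates 1 and 2, 2 and 4 of the 8 had a site, and 0 of the 7 in either. PAX2 had 1 site, in KO replicate 2 alone. KRT8, KRT18 and LHX1 had none in any list. A listed site is not a measure of RNA level. Input libraries held 4511687 to 5960674 counts, and their log2 levels correlated at 0.974 to 0.988 across genes. PCIF1's own count is not used here, so the knockout was not checked on RNA level. The DRACH reads in PCIF1 given above cover only the sites listed in each library and are not such a check.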

How the data were processed

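BWA 0.7.17 is named with STAR, bedtools, deepTools, GRCh38 and hg38 in the submitters' processing notes, which assign no role to any of them. The deposited region list gives a score per region, made by the authors with an unstated scale. The DRACH lists give counts of substituted reads, deposited per library with at least 2 substituted reads per site. The input and fragment tables are deposited raw counts per Ensembl gene. The authors' efficiency table gives log2 fold changes, a mean signal, a test score and p-values, and the authors' SLAM-seq table a KO over WT ratio.

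BED positions were made 1-based. Gene starts came from a RefSeq table of GRCh38.p14 (59792 genes with positions). It has no strand, which was taken from promoter windows, class tables and miRNA entries for 29294 genes; a gene of unknown strand offered the end that would be its start on the region's strand. Where several spans held a region, the host was chosen by known strand first, then by being protein-coding, then by the nearest start. Promoter windows (35116, each 300 bases, 250 before the start) gave other starts. Class entries were matched by accession (1424 of 1431). Intervals of shares are exact (Clopper-Pearson, 95%) and describe counting error alone. Counts were tested with edgeR 4.0.16 (TMM, robust quasi-likelihood; filterByExpr for input; a genotype by library kind interaction for efficiency), with DESeq2 1.42.0 as an alternative. SEs were derived from the log2 change and the F statistic. Replicate pairs differed beyond sampling noise (chi-square over degrees of freedom 2.92 to 19.9), so none was merged. A count of 3 equals 0.503 to 0.665 CPM in the input. Tests were checked on simulated counts with 200 genes changed by 2 on the log2 scale. Of these, 99.0% were recovered among 14692 input genes and 94.5% among 785 genes for efficiency. Unchanged genes called were 16 for input and 7 for efficiency. The changed genes were drawn from those with higher mean counts. The change made exceeds the input range of the members (-0.52 to 0.72), so the check does not measure recovery of changes of that size. Named genes follow a written rule: highest and lowest scores, regions nearest the limit and farthest from a start, most substituted reads, hosts in the class tables and lists, and smallest p. Genes named outside it were chosen after their values were seen. The regions and lists were chosen with earlier results of these data known. MEF lists were not used.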

Additional observations from a re-analysis of the deposited data

How the results depend on the processing

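The number of away regions was 504 and stayed within 1.5 times of it, at 403 to 593, for limits of 25, 100 and 250 nt, protein-coding starts alone and either strand. It was 317 at a 500 nt limit and 775 with the distance taken from the midpoint, where wide regions count as farther from their start. The share inside a gene span was 93.8% with spans on either strand. The share with a WT DRACH site was 0.595% for sites with at least 10 substituted reads, 0.992% with the list of KO replicate 1 and 1.79% with that of KO replicate 2. The share of host genes classed m6Am was 87.0 to 93.3% under its 4 alternatives. In the input, 3 host genes were called without a filter on low counts (IGF2BP1 and NBR1 lower, VBP1 higher; 152 of 30638 genes in all), 0 with DESeq2 (15 of 30638), 0 to 27 when each library was left out, and 0 with the replicate block. For efficiency, 1 was called with DESeq2 (VIM, with 2 of 784 genes in all), 0 to 1 when each genotype and number was left out (CCT5 without WT replicate 2, with 14 of 785 genes in all), and 0 with the replicate block; the causes were not tested. Over all genes the replicate block called 3 of 14629 in the input and 0 of 785 for efficiency. The 2 shared replicate numbers had correlations of deviations of 0.161 and -0.00316, so they were not read as pairs. Over the listed genes, WT fragment replicate 1 held 17665 counts, which limits the precision of the efficiency values.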

Other observations

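The chromosomes with the largest shares of away regions among those with at least 30 regions were chromosome 15, with 19 of 68 (27.9%), and chromosome 13, with 9 of 34 (26.5%), beside 21.4% overall. The single region of the list on chromosome Y, chrY:15896751-15896850 on the minus strand, was an away region outside every gene span. It lay 241529 nt from the nearest start, with score 2.64 and no DRACH site in the WT list. Whether this line carries a chromosome Y, and whether the reads behind this region belong there, was not examined.

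NEFM, UNCX and SHISA2 together held 8 away regions, all counted as having no listed start (for the 4 of NEFM, on chromosome 8, promoter windows were not used here), and COL2A1, a cartilage collagen gene, held 1 of score 3.17 at 1662 nt from its gene start. They were named after their values were seen.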
